A study of Mus musculus with 2 samples.

Results

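The clustered histone genes are the members of the replication-dependent histone clusters of the mouse, taken here as the protein-coding genes of GENCODE release M21 whose symbol starts with Hist1h, Hist2h, Hist3h or Hist4h. The rule took 67 of 22028 protein-coding genes: 6 of class H1, 18 of H2A, 18 of H2B, 12 of H3 and 13 of H4. They were described in 2 total RNA libraries of adrenal gland, both from male B6Cast F1 mice (strain B6CASTF1/J, hybrids of the C57BL/6J and CAST/EiJ strains) at postnatal day 10. Each library was made from 300 ng of RNA depleted of ribosomal RNA, with ERCC spike-ins, which are synthetic transcripts of known amount. The libraries are the 2 replicates of a single untreated group, so no condition is compared with another and no gene has a p-value. The labels number the animals 3 and 4 but give both samples one donor identifier, and both library descriptions name animal 3. Whether the replicates are separate animals therefore cannot be told.

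The libraries held 36982665 and 38984236 expected counts, the estimated number of reads per gene. Cortex markers (6 of 6) and medulla markers (6 of 6) were detected in both, with summed levels of 5834 and 5087 TPM for the cortex and 1511 and 1260 TPM for the medulla. TPM is a count divided by the length of the gene's model and scaled to a total that all libraries share. Markers of another tissue set the libraries apart: the 6 liver markers summed to 4324 TPM in replicate 1 and 13546 TPM in replicate 2, and the 6 granulocyte precursor markers to 24.3 and 77.1 TPM. Only 2 of the 6 granulocyte precursor markers reached 1 TPM in both libraries, and the median of the 6 was 0.4 and 1.5 TPM. The 6 erythroid markers summed to 2406 and 2490 TPM. Fewer cells of a type and less RNA per cell cannot be told apart in whole tissue.

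Replication-dependent histone genes supply the proteins that package newly made DNA: H2A, H2B, H3 and H4 form the nucleosome core, and H1 binds the linker between cores. They are transcribed mainly in S phase, mostly lack introns, and their messengers end in a conserved stem-loop in place of a poly(A) tail. The stem-loop binds SLBP, and the U7 small nuclear ribonucleoprotein directs the cut behind it. Libraries made from total RNA keep such messengers, which selection for poly(A) tails loses.

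A stem-loop of 16 bases, with 6 paired bases on each side of a 4-base loop, stood within 250 bases after the stop codon in 46 of the 67 members (68.7%), against 237 of 44277 other protein-coding transcripts (0.535%). Of the 21 members without it, 15 have a main model that ends at the stop codon, with no bases in which to look. Hist1h2af and Hist1h2ah have 1 and 2 bases after it, too few for a stem-loop. Hist2h3b and Hist1h1a have 37 and 48, which may end before one. Hist1h2bc and Hist2h2be have 742 and 2192, and none was found within 250 bases. For Hist1h2bq and Hist1h2br, which are among the 15, M21 also holds a second transcript with 823 bases after the stop codon, and no stem-loop was found there. The stem-loop began 21 to 58 bases after the stop codon, with a median of 31. The distinct cores are shown because they separate the H4 genes from the other classes; each is given 5′ to 3′ in the most abundant gene that carries it, with the 16 bases of the stem-loop in capitals and 5 flanking bases in lower case.
Hist2h2aa2: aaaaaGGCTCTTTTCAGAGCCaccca
Hist1h2bk: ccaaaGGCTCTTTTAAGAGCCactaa
Hist2h2ac: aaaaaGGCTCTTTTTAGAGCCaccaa
Hist1h3g: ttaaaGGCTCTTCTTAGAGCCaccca
Hist1h4h: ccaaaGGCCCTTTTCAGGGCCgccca
Hist1h4i: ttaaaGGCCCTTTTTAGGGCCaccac
Hist1h4b: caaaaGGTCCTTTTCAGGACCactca
Hist1h4a: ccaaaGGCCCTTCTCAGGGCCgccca
The core of Hist2h2aa2 was shared by 26 genes: 3 of H1, 10 of H2A, 8 of H2B and 5 of H3. The core of Hist1h2bk, which differs in the loop, was shared by 6 genes of H1, H2B and H3. The core of Hist1h4h was shared by 7 genes, all of H4, and the 12 H4 genes with a stem-loop carried a core found in no other class.

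Members resemble each other closely, which bears on how reads were divided among them. The 13 H4 genes encode 1 protein, and the 12 H3 genes encode 2, the canonical H3.1 (4 genes) and H3.2 (8 genes). Among the 18 H2A genes 9 encode the same protein, and among the 18 H2B genes 6 do. The 6 H1 genes encode 6 proteins. Between genes of a class with coding sequences of equal length, the median identity was 96.4% for H2A, 97.2% for H2B, 97.2% for H3 and 93.9% for H4. Coding sequences were identical in 5 pairs: Hist1h2ao and Hist1h2ap, Hist2h2aa1 and Hist2h2aa2, Hist1h2bq and Hist1h2br, Hist2h3c1 and Hist2h3c2, and Hist1h4m and Hist1h4n. Of the 100-base windows in a member's model, a median of 34.3% also occurred in another gene. The share ranged from 0 in 7 members to 100% in Hist2h2aa2 and Hist2h3c1.

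Together the members reached 5092 TPM in replicate 1 and 4579 TPM in replicate 2, a mean of 4836 ± 363 TPM (SD, n = 2). That was 1.57% and 1.34% of the TPM of nuclear protein-coding genes, and 0.412% and 0.356% of their expected counts. Detection, set at 1 TPM or more in both libraries, was reached by 62 of 67 members (92.5%), against 56.7% of all protein-coding genes. Of the members 53 stood at 10 TPM or more in both libraries and 13 at 100 TPM or more. The sum was spread widely: 14 members were needed to reach 50% of it, and the highest, Hist2h2aa2, held 6.71%.

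**Figure D1:**
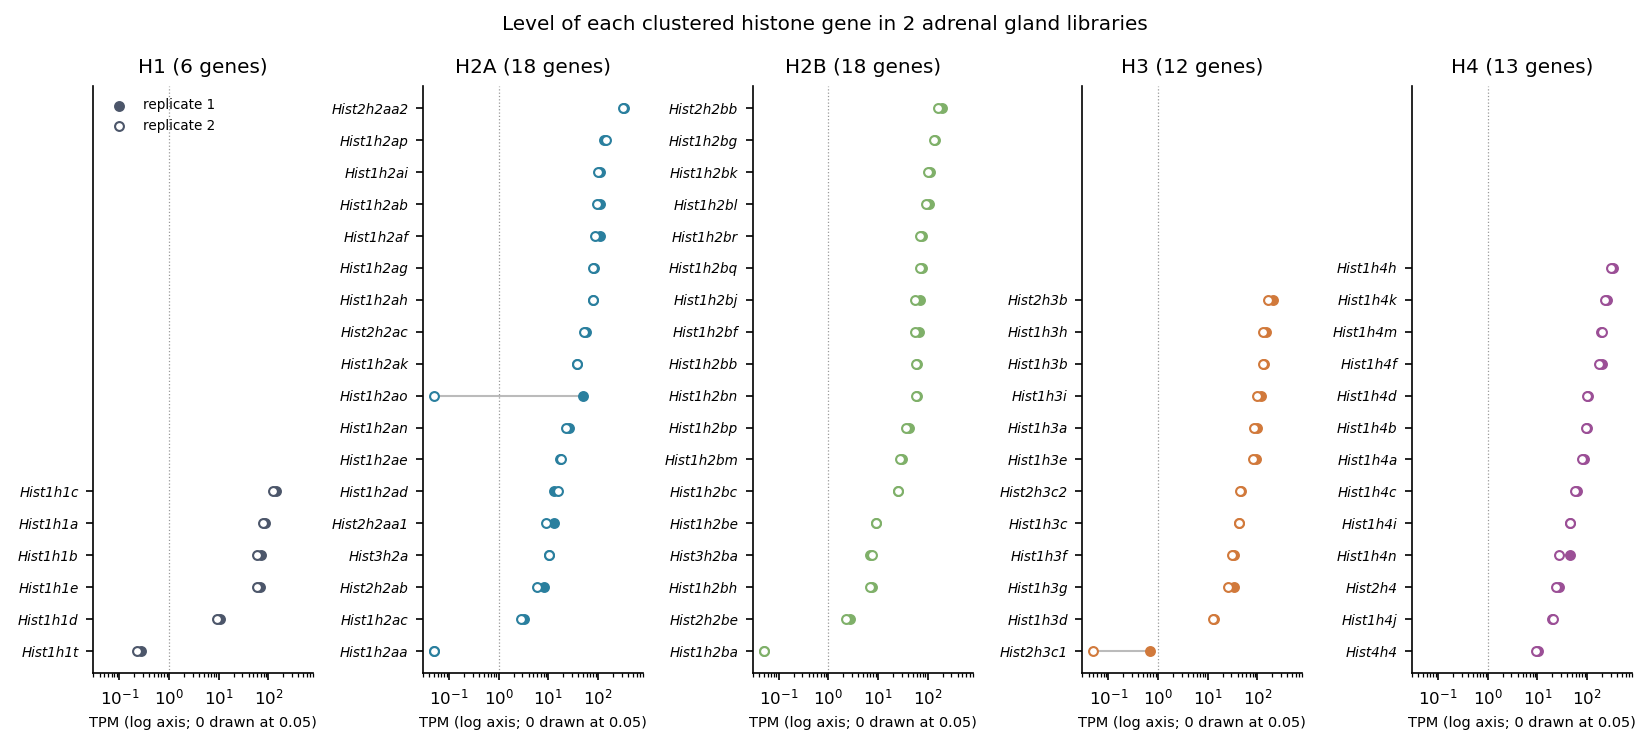
TPM of each of the 67 members (log axis, 0 drawn at 0.05), one panel per class, with filled points for replicate 1 and open points for replicate 2; the dotted line marks 1 TPM. The points of a gene lie close together except for Hist1h2ao and Hist2h3c1, which have 0 in replicate 2, and to a lesser degree Hist1h4n.

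The linker histone genes were led by Hist1h1c, which stood at 142 and 121 TPM. Hist1h1a was at 84.7 and 76.7 TPM, Hist1h1b at 69.8 and 59.5 TPM, and Hist1h1e at 68.1 and 59.7 TPM. Hist1h1d was far lower on this scale, at 10.7 and 9.24 TPM. Its model is 7425 bases long in M21 and runs 4884 bases past the stem-loop, while its RefSeq gene spans 776 bases. Its expected counts, 2856 and 2512, exceeded those of Hist1h1a (1991 and 1827) and of Hist1h1b (1646 and 1422). Divided by the RefSeq length on the same scale, Hist1h1d came to 115 and 99.9, above Hist1h1a (84.2 and 76.2) and Hist1h1b (64.7 and 55.1). It was below Hist1h1e (183 and 160) and Hist1h1c (332 and 283). The counts used are those of the whole M21 model, so any read outside the RefSeq span raises this level. Where the reads lay along the model was not examined. Hist1h1t, the testis-specific linker histone, had 8 and 7 counts, or 0.27 and 0.23 TPM.

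Class H2A was headed by Hist2h2aa2 at 336 and 313 TPM. Its coding-identical copy Hist2h2aa1 received 12.8 and 9.08 TPM, and the pair together held 349 and 322 TPM. Hist1h2ap followed at 132 and 143 TPM, Hist1h2ai at 109 and 101 TPM, Hist1h2ab at 110 and 93.3 TPM, and Hist1h2af at 108 and 86.6 TPM. The lowest detected member was Hist1h2ac at 3.27 and 2.75 TPM, again a long model of 2482 bases, with 285 and 243 counts. Outside the main cluster, Hist2h2ac was at 56.0 and 51.2 TPM, Hist3h2a at 10.3 and 10.2 TPM, and Hist2h2ab at 8.26 and 5.80 TPM. The 9 genes that encode the common H2A protein summed to 544 and 475 TPM.

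Hist1h2aa and Hist1h2ba, a head-to-head pair of H2A and H2B variants known from testis, had 0 counts in both libraries. A floor of 3 counts allows up to 0.282 and 0.278 TPM for Hist1h2aa and up to 0.288 and 0.284 TPM for Hist1h2ba, counting error only. These floors leave out how reads were placed among copies. The authors' second transcript table, described below, put Hist1h2ba at 60.8 and 113 TPM and Hist1h2aa at 0.727 and 0.330 TPM. By the counts first given, Hist1h2aa, Hist1h2ba and Hist1h1t form the lowest members beside Hist2h3c1. The 6 germ cell markers of the testis summed to 0.58 and 0.68 TPM.

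Class H2B was led by Hist2h2bb at 193 and 163 TPM, followed by Hist1h2bg at 141 and 131 TPM, Hist1h2bk at 109 and 99.2 TPM, and Hist1h2bl at 108 and 94.2 TPM. Hist2h2bb led in TPM but not in counts or per RefSeq length. Its expected counts, 1993 and 1708, were below the 2684 and 2528 of Hist1h2bg. Per RefSeq length it came to 138 and 117, against 201 and 187 for Hist1h2bg, the highest of the class on that scale. The model of Hist2h2bb is its coding sequence of 381 bases, and that of Hist1h2bg has 618 bases. The RefSeq length is longer than the model for Hist2h2bb and shorter for Hist1h2bg, so the order depends on the models. The copies Hist1h2br and Hist1h2bq were each given close to an even part of their joint reads: 76.1 and 68.7 TPM for the former, 75.5 and 68.8 TPM for the latter. Their sum was 152 and 137 TPM, while the deposited intervals of the single copies ran from 5.61 to 148 TPM and from 2.75 to 135 TPM in replicate 1. The lowest detected H2B gene was Hist2h2be at 2.68 and 2.29 TPM, on a model of 2620 bases. Hist3h2ba, in the small cluster on chromosome 11, was at 6.98 and 7.64 TPM.

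Class H3 was headed by Hist2h3b at 206 and 166 TPM, Hist1h3h at 147 and 132 TPM, Hist1h3b at 136 and 129 TPM, Hist1h3i at 116 and 98.3 TPM, and Hist1h3a at 96.8 and 85.8 TPM. The 8 genes for H3.2 summed to 573 and 508 TPM and the 4 genes for H3.1 to 393 and 341 TPM, so H3.2 messengers were the more abundant in both libraries. Hist2h3c2 was at 47.1 and 44.9 TPM, and its copy Hist2h3c1 at 0.68 and 0 TPM.

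Class H4 held the most TPM. Hist1h4h was at 336 and 309 TPM, Hist1h4k at 251 and 229 TPM, Hist1h4m at 187 and 196 TPM, Hist1h4f at 201 and 176 TPM, and Hist1h4d at 106 and 97.6 TPM. All 13 H4 genes were detected. At the low end were Hist4h4, the single gene of the cluster on chromosome 6, at 10.1 and 9.39 TPM, Hist1h4j at 19.5 and 20.9 TPM, and Hist2h4 at 26.6 and 23.6 TPM. Hist4h4 and Hist2h4 have long models, of 2863 and 1630 bases, and their counts (1023 and 964; 1492 and 1342) lay within the range of the other H4 genes. Per RefSeq length, with the limit named for Hist1h1d, they came to 82.2 and 76.4, and to 143 and 127. Hist1h4j, on a model of 774 bases with 481 and 525 counts, stayed lower per RefSeq length, at 40.5 and 43.6.

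By class, H4 held 29.4 ± 0.629% of the members' TPM (SD, n = 2), H2A 23.4 ± 0.0621%, H2B 21.2 ± 0.0849%, H3 18.8 ± 0.310% and H1 7.26 ± 0.172%. The replicates differed in these shares by less than 1 percentage point, while the scale moved them by more. M21 models of members run from 312 to 7425 bases, and 12 of them are more than 2 times as long as a RefSeq gene of at most 1000 bases. With counts divided by RefSeq lengths, the share of H1 was higher, at 12.5 ± 0.369%, as was that of H4, at 34.3 ± 0.616%. The shares of H2A, H2B and H3 were lower, at 18.6 ± 0.0344%, 17.6 ± 0.0497% and 17.0 ± 0.231%. Reads of a long model outside its RefSeq span raise these levels, as stated for Hist1h1d. In expected counts, where long messengers weigh more, H1 held 19.7 ± 0.522%. H4 remained the largest class on these 3 scales of the gene table. In the second transcript table it did not: there H2A held 31.2 ± 0.475% of TPM and H4 21.8 ± 1.11%.

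**Figure D2:**
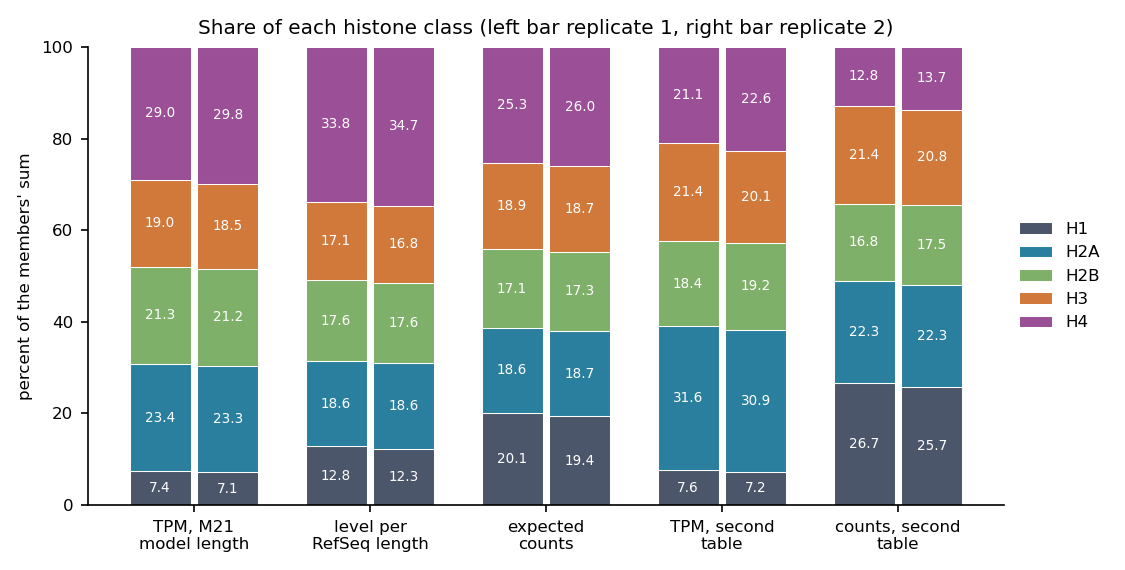
Percent of the members' sum held by each histone class, in replicate 1 (left bar of each pair) and replicate 2 (right bar), on 5 scales. H1 is 7.4% and 7.1% in TPM but 20.1% and 19.4% in expected counts, and H4 shrinks from 29.0% and 29.8% in TPM to 12.8% and 13.7% in the counts of the second table.

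The members lie in 4 clusters. Cluster 1 on chromosome 13 holds 54 genes and 82.2 ± 0.274% of the TPM (SD, n = 2), cluster 2 on chromosome 3 holds 10 genes and 17.2 ± 0.314%, cluster 3 on chromosome 11 holds 2 genes and 0.365 ± 0.0355%, and cluster 4 on chromosome 6 holds 1 gene and 0.202 ± 0.00460%. Cluster 1 falls into 3 blocks in the coordinates of mm10, from 21715763 to 21837530 (18 genes, 1584 and 1420 TPM), from 22035164 to 22043676 (5 genes, 386 and 359 TPM), and from 23531050 to 23934851 (31 genes, 2206 and 1994 TPM). Mean levels ran from 20.2 to 239.8 TPM in the first block, from 44.8 to 104 TPM in the second and from 0 to 322 TPM in the third, and each block holds genes of several classes. The far end of the third block carries Hist1h2ba and Hist1h2aa, both at 0.

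**Figure D3:**
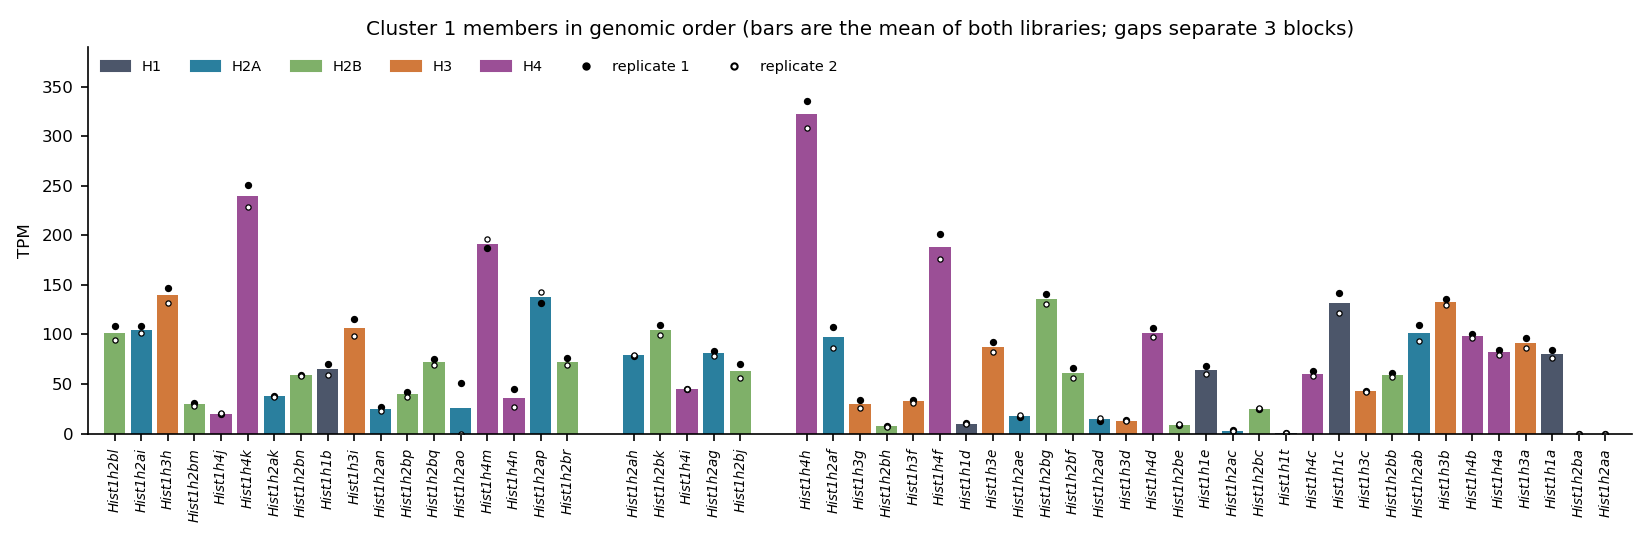
TPM of the 54 genes of cluster 1 in genomic order, coloured by class, with bars for the mean of both libraries, filled points for replicate 1 and open points for replicate 2; gaps separate the 3 blocks. Hist1h4h, at one edge of the third block, stands highest at 336 and 309 TPM, and Hist1h2ba and Hist1h2aa at the other edge are at 0.

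An H2A gene and an H2B gene start head to head in 12 pairs, with 176 to 306 bases between their starts. Neighbours in a pair did not stand at like levels throughout. Hist1h2ai and Hist1h2bl were near each other, at 109 and 101 TPM against 108 and 94.2 TPM. Hist1h2bg, at 141 and 131 TPM, stood far above its partner Hist1h2ae, at 16.9 and 18.2 TPM, and the counts of Hist1h2ae were 0.150 of those of Hist1h2bg. Across the 11 pairs with counts the rank correlation of H2A with H2B counts was 0.127. That description rests on 11 points, on the unlike lengths of the models and on how reads were divided among copies. In the second table Hist1h2ae had 1489 and 1132 counts in place of 374 and 409, and Hist1h2bg 741 and 745 in place of 2684 and 2528, so the imbalance turns around there.

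Promoter sequences from RefSeq (GRCm38.p6, 250 bases before to 50 bases after the start) were found for 62 of the 67 members. Searched on both strands, CCAAT, a site bound by the factor NF-Y, stood in all 50 promoters of H1, H2A, H2B and H3 genes. It stood in only 3 of 12 H4 promoters (25%), and in 37.4% of 32851 promoters in all. ATTTGCAT, the octamer bound by OCT1 and known from H2B promoters, stood in 7 of 18 H2A and 6 of 16 H2B promoters and in no promoter of H1, H3 or H4, against 1.74% of all. TATAAA stood in 35 of 62 (56.5%), against 13.6% of all, and did not separate the classes in this way: it was in 8 of 12 H4 (66.7%), 11 of 18 H2A (61.1%) and 8 of 16 H2B promoters (50%). Partners in a head-to-head pair share sequence, so their promoters are not counted independently. A pair of sequences is shown because one holds and the other lacks CCAAT and the octamer, which were found more often in H2A and H2B than in H4 promoters. The first is the stretch between the RefSeq starts of Hist1h2ae and Hist1h2bg, chr13:23571221-23571399 of GRCm38, read 5′ to 3′ on the strand of Hist1h2bg, with CCAAT, the octamer and TATAAA on either strand in capitals. The second is the 250 bases upstream of Hist1h4h, chr13:23530794-23531043, plus strand, which holds none of the 3 motifs.
Hist1h2ae to Hist1h2bg: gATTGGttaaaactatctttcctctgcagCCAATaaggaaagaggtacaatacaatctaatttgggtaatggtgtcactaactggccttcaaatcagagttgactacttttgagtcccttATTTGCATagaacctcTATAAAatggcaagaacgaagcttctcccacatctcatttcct
Hist1h4h: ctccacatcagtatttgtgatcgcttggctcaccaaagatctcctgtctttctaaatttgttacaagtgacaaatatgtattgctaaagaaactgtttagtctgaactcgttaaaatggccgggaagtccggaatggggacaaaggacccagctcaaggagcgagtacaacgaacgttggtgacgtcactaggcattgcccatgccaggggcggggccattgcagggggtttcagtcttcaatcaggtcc
The order of levels by motif depended on the length used. The 13 H2A and H2B genes with the octamer had a median of 56.0 and 51.2 TPM, and the 21 without it 59.4 and 55.9 TPM. Per RefSeq length, averaged over both libraries, the order turned around, with medians of 57.1 with the octamer and 43.6 without it. The 3 H4 genes with CCAAT had a median of 84.7 and 79.1 TPM, and the 9 without it 100.09 and 96.7 TPM. Per RefSeq length this order also turned around, with medians of 158 and 92.6.

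Replicate 2 was slightly lower than replicate 1 across the members. Of the 64 members whose mean over both libraries reached 10 expected counts, 53 were lower and 11 higher in replicate 2, with a median log2 ratio of −0.12 after TMM scaling, which equalises the bulk of genes between libraries. The median over all 15229 protein-coding genes past the same minimum was 0.01, and 7288 of them were lower. Summed over the members, scaled counts in replicate 2 were 0.913 of those in replicate 1, with an exact binomial 95% interval of 0.905 to 0.922 that covers counting error only. By class the ratio was 0.880 for H1, 0.901 for H3, 0.915 for H2A, 0.924 for H2B and 0.942 for H4. All 5 H1 and all 12 H3 genes past the minimum were lower in replicate 2.

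The direction of the members was shared by other lists. The median log2 ratio was −0.14 for the cortex markers and −0.19 for the medulla markers, all 12 of them lower in replicate 2, while all 6 liver markers were higher, with a median of 1.72, and all 5 granulocyte precursor markers past the minimum were higher, with a median of 1.71. The part of these markers in the histone difference was not tested. With 1 library per replicate, and both libraries in 1 group, no test of the difference can be made.

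The deposited TPM carry intervals of a level their headers do not state. They hold the error of counting and of read placement within a library, not the spread between animals. These intervals lay apart between the libraries for 15 of 64 members (23.4%), all lower in replicate 2. Over protein-coding genes past the same minimum, 7.77% lay apart with replicate 2 lower and 11.8% with replicate 2 higher. Those genes were not matched to the members in counts, and the bounds are in TPM without TMM scaling. The 15 members shared a median of 24.7% of their windows, against 37.8% over all 64. The 15 included all 5 H1 genes past the minimum, among them Hist1h1c with an interval of 136 to 143 TPM in replicate 1 and 116 to 122 TPM in replicate 2. Among the others were Hist2h3b (194 to 211 against 155 to 171 TPM), Hist1h3g (29.4 to 36.4 against 21.9 to 28.0 TPM), Hist1h4f (188 to 207 against 164 to 182 TPM) and Hist1h4h (317 to 343 against 291 to 315 TPM).

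A difference of more than 1.5-fold was seen in 3 of 64 members (4.69%), all lower in replicate 2, against 4.37% of genes lower and 11.9% of genes higher among all 18175 past the minimum. Each of the 3 belongs to a pair with identical coding sequence. Hist1h2ao went from 710 counts to 0, while its copy Hist1h2ap went from 1854 to 2031. Set against a floor of 3 counts the fall of Hist1h2ao is 236-fold, which covers counting error and not the division of reads between copies. The intervals of Hist1h2ao, 17.6 to 79.8 TPM and 0 to 26.3 TPM, overlap. Summed, the pair had 2563 and 2031 counts, a ratio of 0.793 (95% interval 0.748 to 0.841). Hist2h3c1 went from 42.8 counts to 0, which is 14.3-fold against the same floor, with the same limit, and 100% of its windows are shared. The pair with Hist2h3c2 had a ratio of 0.944 (0.879 to 1.01). In the second table Hist1h2ao held 0.673% and 0% of its pair's counts, and Hist2h3c1 held 0% and 2.79%. Hist1h4n went from 549 to 333 counts and Hist1h4m from 2076 to 2206, and their sum had a ratio of 0.968 (0.916 to 1.02). With the 5 pairs summed no member was more than 1.5-fold apart. At the other end, Hist1h2ad was 1.23-fold higher in replicate 2, with 225 and 277 counts. Hist3h2ba was 1.11-fold higher, with 132 and 146 counts, and Hist1h2ap, named above, followed.

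**Figure D4:**
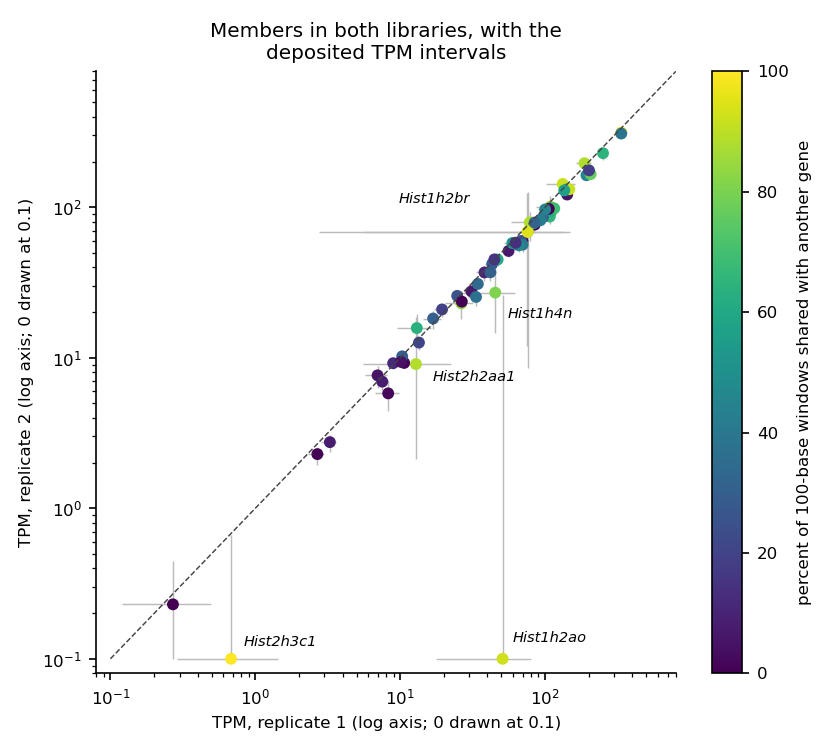
TPM of members in replicate 1 and replicate 2 (log axes, 0 drawn at 0.1; the 2 members at 0 in both are left out), with grey bars for the deposited intervals and colour for the percent of 100-base windows shared with another gene. Most points lie just under the dashed line of equality; Hist1h2ao and Hist2h3c1 drop to 0 in replicate 2, and Hist1h2br and Hist1h2bq have the longest bars among genes above 0 in both.

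The intervals were wider, by their medians, in members that share much sequence than in those that share little. The upper bound was a median of 1.14 times the lower in the 14 members at 1 TPM or more with under 10% of windows shared, and 1.57 times in the 12 with 80% or more shared. The narrowest belonged to Hist1h1c (1.05 times), Hist1h1e (1.06 times) and Hist1h4d (1.07 times), and the widest to Hist1h2ao, Hist1h2bq and Hist1h2br. Of these, Hist1h1e shared 24.7% of its windows. Members also differ in counts, and the part of counts in the widths was not tested.

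The authors' second transcript table, made from the reads and an index, gave the members fewer counts in sum. The members had 92887 and 84768 counts in the gene table and 62782 and 58848 in the second, a ratio of 0.676 and 0.694. The ratio was 0.897 and 0.922 for H1, 0.811 and 0.830 for H2A, 0.762 and 0.774 for H3, 0.665 and 0.702 for H2B, and 0.343 and 0.365 for H4. In TPM the second table stands higher for protein-coding genes at large, by a median of 0.64 on the log2 scale (1.56-fold), and this shift was taken off before genes were compared. Then 7 of 64 members (10.9%) were more than 2-fold higher in the second table and 18 (28.1%) more than 2-fold lower, against 1.56% and 0.733% of 13642 protein-coding genes. Without the shift taken off, 16 were higher and 11 lower.

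The genes lower in the second table were mostly of H4 and H2B. Of 13 H4 genes, 9 were more than 2-fold lower and none higher: Hist1h4f had 2149 and 1905 counts in the gene table and 38.7 and 48.9 in the second, and Hist1h4d 4034 and 3765 against 406 and 497. Of the 5 H1 and 11 H3 genes compared, none was more than 2-fold apart in TPM with the shift taken off. In counts, the 4 genes for H3.1 together had 5068 and 4456 in the gene table and 2224 and 1980 in the second. Higher in the second table were Hist2h2aa1, with 229 and 164 counts in the gene table and 4966 and 4732 in the second, Hist1h2ad (225 and 277 against 2699 and 2742) and Hist1h2be (783 and 818 against 3497 and 3372). The copy of Hist2h2aa1, Hist2h2aa2, had 5276 and 4992 counts in the gene table and 0 in the second, and the pair together had 5505 and 5156 against 4966 and 4732. Hist1h2bq and Hist1h2br together had 1620 and 1498 counts in the gene table and 20.7 and 15.3 in the second, the lowest ratio of any pair of copies. Hist1h2ba, at 0 in the gene table, was given 162 and 334 counts in the second, so its absence rests on the gene table alone.

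**Figure D5:**
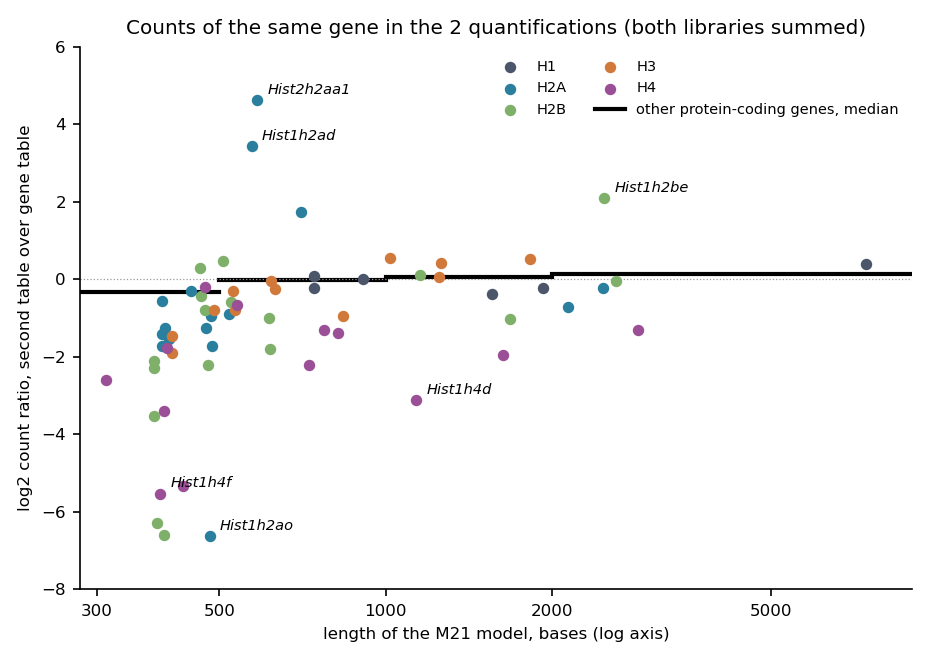
Log2 ratio of a member's count in the second table over the gene table (both libraries summed) by the length of its M21 model (log axis), coloured by class, with black lines for the median of other protein-coding genes in 4 length ranges; genes at 0 in either table are left out. Most H4 genes lie well under the black line, while Hist2h2aa1, Hist1h2ad and Hist1h2be lie above it.

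Short models had lower counts in the second table among other genes too, but by less. Among genes under 500 bases the median count ratio was 0.301 for 28 members and 0.790 for 120 other protein-coding genes. From 500 to 1000 bases it was 0.667 for 19 members and 0.983 for 1116 others. From 1000 to 2000 bases it was 0.851 for 9 members and 1.05 for 4020 others, and above that 0.912 for 6 members and 1.09 for 8281 others. The part of length and of shared sequence in the disagreement was not tested. Hist1h4d and Hist2h4, which share no windows with another gene, were among the H4 genes more than 2-fold lower in the second table. Ranks differed more between the quantifications than between the replicates. Across the 67 members the rank correlation of TPM was 0.978 between replicates and 0.507 between the quantifications, a description over genes that share reads.

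Genes that are no members also share windows with them. The pseudogene Hist1h2al shares windows with 3 members and was given 596 and 523 counts, or 67.8 and 58.7 TPM, in the gene table and 0 in the second. Gm20634, a processed transcript that shares windows with 17 members, had 250 and 289 counts in the gene table and 1060 and 998 in the second. H2afx, the gene for H2A.X, shares windows with 13 members and had 1503 and 1382 counts against 1213 and 1122.

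The replication-independent histones, mostly made throughout the cell cycle from polyadenylated messengers, summed to 771 and 708 TPM over 11 genes, all detected. In TPM, which depends on the lengths of the models, the members' sum was 6.60 and 6.47 times as high. H3f3a, one of the genes for H3.3, was at 278 and 269 TPM, H3f3b, the other, at 154 and 141 TPM, H2afz, which encodes H2A.Z, at 97.6 and 81.8 TPM, and H1f0, a linker histone of resting cells, at 81.0 and 64.8 TPM. Of the 11 genes 10 were lower in replicate 2, with a median log2 ratio of −0.15 and none past 1.5-fold.

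Genes that process or package the products were detected with few exceptions. Of 22 genes of histone messenger processing, 21 were detected, and Slbp, whose product binds the stem-loop, was at 18.5 and 16.6 TPM. The most abundant were Snrpg (83.8 and 73.8 TPM), Snrpb (70.7 and 64.5 TPM), Srrt (47.9 and 43.3 TPM) and Snrpe (44.1 and 41.5 TPM), of which the Snrp genes encode Sm proteins that also serve the spliceosome. Zfp473, a zinc finger protein of the U7 complex, was at 0.43 and 0.11 TPM. All 15 histone chaperone genes were detected, led by Rbbp7 (61.4 and 57.9 TPM), Rbbp4 (49.2 and 47.1 TPM), Nap1l4 (47.0 and 44.8 TPM) and Nap1l1 (47.2 and 43.1 TPM).

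Genes of proliferating cells were present as well. All 20 S phase genes were detected, with Pcna at 41.2 and 35.0 TPM, Mcm6 at 19.6 and 16.6 TPM, Mcm7 at 17.9 and 17.5 TPM and Slbp as above. All 12 mitosis genes were detected, among them Top2a at 22.8 and 17.9 TPM, Cdk1 at 17.8 and 16.1 TPM, Mki67 at 15.5 and 11.7 TPM and Ccna2 at 11.8 and 10.1 TPM. Their median log2 ratios were −0.11 for S phase and −0.29 for mitosis, with all 12 mitosis genes lower in replicate 2 and none of the 32 past 1.5-fold.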

How the data were processed

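Total RNA of 2 adrenal gland samples was measured, 1 library each, in 1 group. Per the file headers and labels, the authors deposited a gene table from alignments (mm10, GENCODE M21; column names of RSEM) with expected counts, not normalised, TPM over all entries, posterior means and TPM intervals. A second deposited transcript table, with the columns kallisto writes (estimated counts, TPM), was summed per gene. The isoform percentages of the deposited transcript table, per the file headers, were not used. The tools' names and version numbers are not stated in the labels or headers. The labels name a directional kit.

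Gene totals were 36652695 and 38641442 expected counts on 55536 annotated genes. The binomial intervals of ratios and the floors of 3 counts cover counting error only. Replicate ratios took TMM scaling factors from edgeR 4.0.16, a prior of 0.5 and a mean of at least 10 counts; SD is over 2 libraries, and nothing shows that they come from separate animals. Single-member intervals of ratios are exact (Clopper-Pearson, 95%) on rounded counts. The gene table's effective length is the model length less 99 bases. Level per RefSeq length is the count over the RefSeq gene length less 99, on the TPM scale. The M21 length was kept where a RefSeq gene spans more than 1000 bases. Because the count is that of the M21 model, the level is raised where reads lie outside the RefSeq span. It is lowered where the RefSeq gene is longer than the model. Windows of 100 bases were compared over M21 transcripts. The stem-loop was sought as 6 pairs around a 4-base loop, with 2 leading G and 2 closing C. Proteins were translated from M21 coding sequences and are not printed. RefSeq sequences of the table for GRCm38.p6 were matched by symbol or synonym. Quantifications were compared for genes at 1 TPM or more in either.

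Named were all H1 genes, the 5 most abundant of each other class, the 3 highest and 3 lowest ratios between replicates and between quantifications, the 3 widest and 3 narrowest intervals, members at 0, members outside cluster 1, and the 4 most abundant of each other list with Slbp (the marker lists are given as sums); further genes were chosen as examples after their values were seen. The members and the 11 lists were chosen with earlier results of these data known. The ratio and stem-loop steps were tested on simulated data. Alternatives were other scalings (DESeq2 1.42.0 size factors, library total, spike-in total), thresholds, priors, the second table, posterior means, RefSeq lengths, summed copies and each library alone. Scripts used Python 3.11.15 (scipy 1.17.1, matplotlib 3.10.9, pandas 2.3.3, numpy 2.4.6) and R 4.3.3.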

Additional observations from a re-analysis of the deposited data

How the results depend on the processing

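Of 69 alternatives, 48 left a result within its spread or within 1.5 times its count, 21 moved it and none reversed a direction. Only the median log2 ratio between replicates could have reversed, since the other results are counts, sums and shares that cannot be negative. For the summed TPM and the class shares, leaving out a library could not move the result. Their spread is the SD of both libraries, which is larger than any such shift. The RefSeq lengths, the summed copies, the comparison in expected counts and the comparison without centring were chosen after seeing the data.

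The summed TPM of members was 4836 and became 7092 in the second table. The share of H1, 7.26% in TPM, was 19.7% in expected counts and 12.5% per RefSeq length. That of H2A, 23.4%, was 31.2% in the second table, 18.6% in expected counts and 18.6% per RefSeq length. That of H2B, 21.2%, was 18.8%, 17.2% and 17.6% in the same order. That of H3, 18.8%, was 20.7% in the second table and 17.0% per RefSeq length. That of H4, 29.4%, was 21.8%, 25.6% and 34.3%.

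The median log2 ratio of −0.12 was −0.19 with the total of expected counts, −0.17 with the spike-in total, −0.083 in the second table, and −0.38 as a mean, which Hist1h2ao and Hist2h3c1 with 0 counts in replicate 2 pull down. With both set to a floor of 3 counts the median was −0.12. It could not have moved, because both genes stay far below the median at that floor. The 3 members more than 1.5-fold apart became 5 in the second table and 0 with copies summed, and the 25 members more than 2-fold apart between quantifications became 38 in expected counts (5 higher and 33 lower in the second table).

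Without replicate 1 and without replicate 2, in that order, there were 62 and 63 members detected, summed TPM of 4579 and 5092, shares of 7.13% and 7.38% for H1, 23.3% and 23.4% for H2A, 21.2% and 21.3% for H2B, 18.5% and 19.0% for H3, 29.8% and 28.95% for H4, 24 and 26 members apart between quantifications, and 13 and 14 members holding 50% of the TPM. No paired analysis was possible because there is 1 group. The division of reads among copies limits single levels: Hist1h2ao, Hist1h2bq, Hist1h2br, Hist2h2aa1 and Hist2h3c1 have deposited intervals whose bounds lie more than 4-fold apart in at least 1 library.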
